A study of Mus musculus with 6 samples.

Results

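The Btg and Tob antiproliferative family was followed in mouse leukemia cells as 5 genes of 26286 in the count table, Btg1, Btg2, Btg3, Tob1 and Tob2. They were taken as a named family, with earlier results of these data known. All 5 were found by their current symbols and passed the low-count filter. The samples were 3 libraries from mice fed doxycycline (dox) for 3 days before harvest and 3 libraries from untreated mice (0 days of dox), each from a separate animal per the series' design text. All 6 libraries held cells of 1 tri-transgenic leukemia, named A024, sorted by flow cytometry out of marrow of leukemic hosts that were Rag1 knockout animals, so the replicates are hosts of the same leukemia and not separate leukemias. Cells from dox mice were sorted as GFP-mid and cells from untreated mice as GFP-high. The treatment is labelled as restoring Pax5, a transcription factor that B cell identity depends on. The labels do not name the transgenes. General knowledge of this model gives them as a constitutively active Stat5b, a tetracycline transactivator under the Vav promoter and a hairpin RNA against Pax5 linked to GFP, which dox switches off. Rag1 knockout hosts make no mature B or T cells of their own. Dox, loss of the hairpin and the sort gate changed together and cannot be told apart, and a control given dox but lacking the hairpin was not analysed here.

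Btg and Tob proteins slow cell division in many cell types. They share an amino-terminal domain that binds the Cnot7 and Cnot8 subunits of the CCR4-NOT complex, the main enzyme that shortens the poly(A) tails of messenger RNA, and a shortened tail leads to decay of the message. Tob1 and Tob2 carry in addition carboxy-terminal motifs that bind the cytoplasmic poly(A)-binding protein. Btg1 was named for a translocation in human B cell leukemia, BTG1 and BTG2 are recurrently altered in human B cell tumours, and Btg1 and Btg2 keep mouse T cells quiescent. Btg2 is a target of p53 and an immediate early gene, and Btg1 has been described as a target of FoxO factors.

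The start regions of the members are shown because Btg1 and Btg2 rose together, by more than 2-fold each, while Btg3 did not pass the test. Each run is 300 bases of RefSeq sequence (build GRCm38.p6), from 250 bases before to 50 after an annotated start, 5' to 3' on the gene's strand. Capitals mark matches, on either strand, to the FOXO core (GTAAACA), the cyclic AMP response element CRE (TGACGTCA), the CCAAT box (CCAAT), the GC box (GGGCGG), the TATA box (TATAAA) and the E-box (CACGTG).
Btg1, chr10:96616751-96617050, plus strand: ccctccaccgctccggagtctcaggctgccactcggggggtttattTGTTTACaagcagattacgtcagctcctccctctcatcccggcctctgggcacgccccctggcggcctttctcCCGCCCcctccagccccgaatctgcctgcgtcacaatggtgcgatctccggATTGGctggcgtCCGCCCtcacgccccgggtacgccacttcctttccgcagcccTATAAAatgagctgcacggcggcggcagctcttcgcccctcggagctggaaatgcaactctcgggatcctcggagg
Btg2, chr1:134079106-134079405, minus strand: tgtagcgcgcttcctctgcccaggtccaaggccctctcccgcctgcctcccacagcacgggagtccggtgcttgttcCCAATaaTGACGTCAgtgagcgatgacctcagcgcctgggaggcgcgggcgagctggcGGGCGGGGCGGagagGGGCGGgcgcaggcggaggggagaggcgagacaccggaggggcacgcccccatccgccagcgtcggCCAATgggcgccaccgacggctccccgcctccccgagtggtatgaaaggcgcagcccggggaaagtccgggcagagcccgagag
Btg3, chr16:78376761-78377060, minus strand, the downstream one of 2 annotated starts: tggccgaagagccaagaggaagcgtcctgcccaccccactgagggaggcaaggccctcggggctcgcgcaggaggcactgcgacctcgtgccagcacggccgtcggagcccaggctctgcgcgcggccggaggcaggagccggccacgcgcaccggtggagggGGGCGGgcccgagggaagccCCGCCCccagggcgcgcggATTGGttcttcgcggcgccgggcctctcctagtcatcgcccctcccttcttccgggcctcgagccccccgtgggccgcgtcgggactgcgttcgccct

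The Btg1 window held 1 FOXO core, on the other strand and thus read as TGTTTAC, and among 32851 RefSeq windows of this length 3.65% held one. It also held 1 TATA box, found in 13.6% of all windows, 1 CCAAT box (37.4% of all windows) and 2 GC boxes (35.7% of all windows). The Btg2 window held 1 CRE, which 1.79% of all windows held, beside 2 CCAAT boxes and 3 GC boxes, of which the first and the second overlap by a base. The Btg3 window shown held 1 CCAAT box and 2 GC boxes. No E-box (7.15% of all windows) was present in the windows of any member. All 5 members had a window in the table. The upstream Btg3 start had 1 CCAAT box, the Tob1 window 2 CCAAT boxes, 3 GC boxes and 1 TATA box, and the Tob2 window 2 GC boxes. The GC content was 64.7% for Btg1, 72.0% for Btg2, 57.7% and 75.7% for the 2 starts of Btg3, 75.3% for Tob1 and 58.0% for Tob2, against a median of 52.7% over all windows. These matches are letters in a window, and no binding was measured.

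Total counts were between 14185203 and 15612435 per library. Levels are given as CPM, counts scaled to libraries of 1000000 counts after TMM normalisation, and 12275 genes were tested with edgeR's quasi-likelihood test, with p-values adjusted by Benjamini-Hochberg over all of them and called under 0.05. Fold changes are dox over untreated, with their standard error (SE). Pax5 measured 227, 281 and 231 CPM in dox replicates 1, 2 and 3, against 154, 93.5 and 105 CPM in untreated replicates 1, 2 and 3 (log2 fold change 1.07, SE 0.17, adjusted p = 0.000695, edgeR). All 8 markers of the B lineage were higher after dox, with summed levels of 8045 to 8894 CPM in dox libraries and 4684 to 4898 CPM in untreated libraries. Vpreb1, a surrogate light chain, at 1386 ± 65.3 CPM in dox and 793 ± 14.0 CPM in untreated libraries (SD, n = 3 each), was among the most abundant. All 7 tested of 8 neutrophil markers were also called higher after dox, led in level by S100a9 and S100a8. So were 7 of 8 macrophage markers, led in level by Lyz2, with Cd68 (log2 fold change 0.25) not past the test. In dox replicate 2, S100a9 (31.2 CPM) and S100a8 (22.9 CPM) lay under untreated replicate 1 (39.1 and 23.1 CPM). Camp and Lyz2 overlapped between groups as well. Lcn2, Ltf, Ngp, Mpo and the other macrophage markers called higher did not. The summed neutrophil markers were 522, 113 and 248 CPM in dox replicates 1, 2 and 3, against 112, 87.6 and 103 CPM in the untreated ones, and the summed macrophage markers 102, 41.8 and 54.4 CPM, against 26.6, 19.0 and 25.2 CPM. Of the stromal and endothelial markers, Pecam1, which B cell progenitors also express, and Col1a1 rose and Cxcl12 did not pass, while the list summed to 130 to 161 CPM in dox and 94.7 to 103 CPM in untreated libraries. Most of this sum was Pecam1, at 145 ± 15.6 CPM in dox and 97.5 ± 3.59 CPM in untreated libraries (SD, n = 3 each). Col1a1 was at 1.77 ± 0.767 and 0.802 ± 0.342 CPM in the same order. Erythroid markers (Hbb-b1 and Hba-a1 the most abundant) summed to at most 7.17 CPM in any library, T cell markers (Cd5 the only one tested, Cd3e and Cd8a at 0) to at most 1.86 CPM and natural killer cell markers (Klrb1c the only one tested) to at most 9.61 CPM, and none of their tested genes passed.

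Of the 5 family members, 4 rose after dox (Btg1, Btg2, Tob1 and Tob2), 0 fell and 1, Btg3, did not pass the test (edgeR quasi-likelihood test, adjusted p under 0.05 over all genes). Over all genes tested, 53.6% were called, 27.0% rose and 26.6% fell, so a rise is a common event in this comparison. The change reached 2-fold upwards for 2 members, Btg1 and Btg2, and for 7.87% of all genes tested. The median log2 fold change was 0.68 over the 5 members and 0.01 over all genes tested. No member was called lower by edgeR at an unadjusted p under 0.05, by DESeq2 or by limma voom either. The groups did not overlap for any of the 5 members, against 62.2% of all genes tested (31.2% with dox libraries higher and 31.0% with dox libraries lower). Exact two-sided permutation tests of the CPM values gave p = 0.1 for each member, the smallest value that 3 libraries against 3 allow. These are levels in RNA of sorted cells, in which a change in the mix of cells and a change in RNA per cell cannot be told apart.

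**Figure D1:**
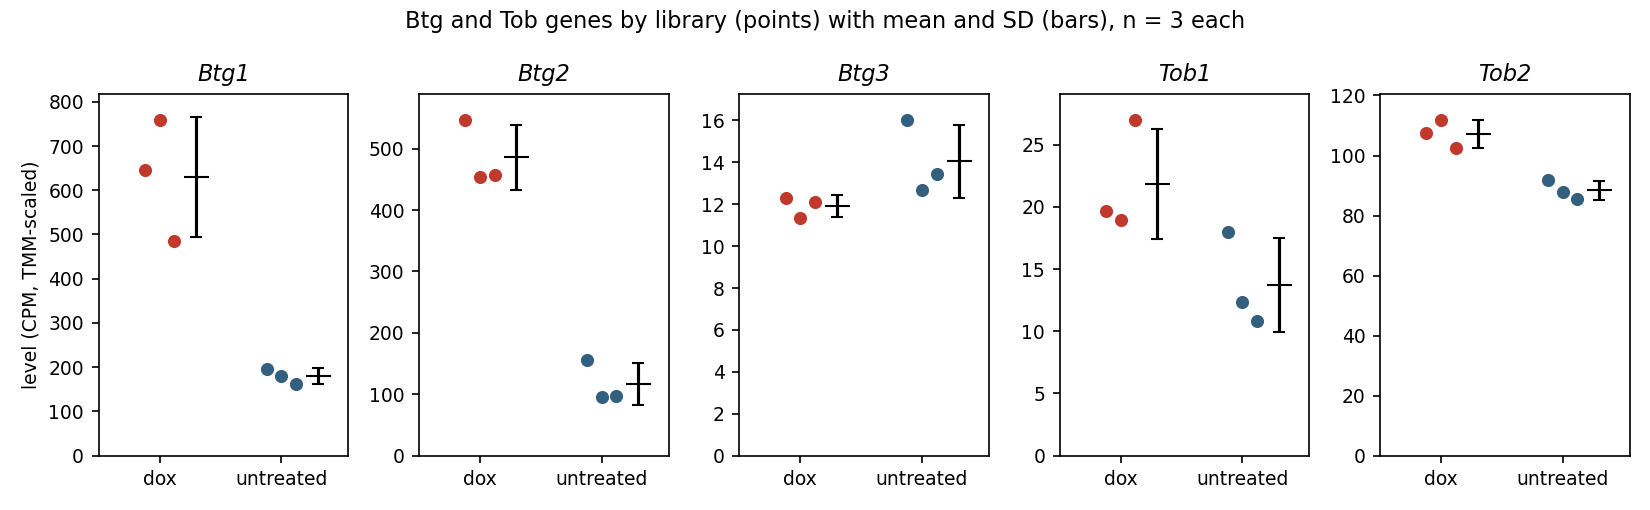
Level of each family member in CPM (vertical axis, from 0, scaled for each gene) in 3 dox and 3 untreated libraries; points are libraries, and the bar beside them gives the mean and SD. Dox libraries lie above untreated ones for Btg1, Btg2, Tob1 and Tob2 and below them for Btg3, with the widest gaps for Btg1 and Btg2.

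Btg1 (Entrez Gene 12226, chromosome 10) binds the deadenylase subunits Cnot7 and Cnot8 and restrains proliferation. It measured 646, 758 and 486 CPM in dox replicates 1, 2 and 3, against 197, 181 and 161 CPM in untreated replicates 1, 2 and 3. The lowest dox library was 2.47 times the highest untreated one, and the dox libraries were spread more widely than the untreated ones. The mean was 630 ± 137 CPM in dox and 180 ± 17.7 CPM in untreated libraries (SD, n = 3 each), which is 153rd in level among the genes tested in dox libraries and 1310th in untreated libraries. The fold change was 3.51 (log2 1.81, SE 0.15, 95% interval 1.47 to 2.15, adjusted p = 2.1e-05, edgeR). This rise was 327th in size of the 3316 genes that rose. Of its annotated copies on the X chromosome, Btg1b had 0 counts in all 6 libraries and Btg1c had 1 count in all, in untreated replicate 2. How reads that match several places were counted is not given in the sources used here, so the level of Btg1 is uncertain to that extent.

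Btg2 (Entrez Gene 12227, chromosome 1), the closest relative of Btg1 in the family, rose the most of the 5. It measured 546, 454 and 457 CPM in dox replicates 1, 2 and 3, against 156, 95.2 and 98.0 CPM in untreated replicates 1, 2 and 3. The lowest dox library was 2.92 times the highest untreated one, and untreated replicate 1 stood above the other 2 of its group. The means were 486 ± 52.4 CPM in dox and 116 ± 34.2 CPM in untreated libraries (SD, n = 3 each). The fold change was 4.18 (log2 2.06, SE 0.18, 95% interval 1.66 to 2.47, adjusted p = 2.64e-05, edgeR), the 245th largest of the 3316 rises. In level it stood 279th among the genes tested in dox libraries and 2281st in untreated libraries.

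The rises of Btg1 and Btg2 stand beside higher neutrophil and macrophage markers, whose sums in every library are given above. The macrophage sum was higher in each dox library (41.8 to 102 CPM) than in any untreated one (19.0 to 26.6 CPM), and so was the neutrophil sum (113 to 522 CPM in dox and 87.6 to 112 CPM in untreated libraries), though dox replicate 2 and untreated replicate 1 came close in it. The part of these cells in the rises was not tested.

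Tob1 (Entrez Gene 22057, chromosome 11), which links CCR4-NOT to the poly(A)-binding protein and also binds Smad proteins, was among the 2 least abundant members. It measured 19.7, 18.9 and 27.0 CPM in dox replicates 1, 2 and 3, against 18.0, 12.3 and 10.8 CPM in untreated replicates 1, 2 and 3. The groups came close, since dox replicate 2 stood 1.05 times above untreated replicate 1, and 299, 272 and 421 counts in dox libraries and 257, 184 and 159 in untreated libraries lay behind these values. The fold change was 1.60 (log2 0.68, SE 0.20, 95% interval 0.22 to 1.13, adjusted p = 0.0185, edgeR). The call was lost without untreated replicate 2 (log2 0.60, adjusted p = 0.0689), without untreated replicate 3 (0.53, adjusted p = 0.0717) and without dox replicate 3 (0.49, adjusted p = 0.0810), and without any one library the adjusted p ran from 0.00402 to 0.0810.

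Tob2 (Entrez Gene 57259, chromosome 15), the close relative of Tob1 with the same poly(A)-binding protein motifs, rose the least of the 4 but evenly. It measured 107, 112 and 103 CPM in dox replicates 1, 2 and 3, against 91.9, 87.9 and 85.7 CPM in untreated replicates 1, 2 and 3. The groups were narrow and did not overlap, with all dox values higher. The fold change was 1.21 (log2 0.28, SE 0.07, 95% interval 0.13 to 0.43, adjusted p = 0.00699, edgeR). A predicted antisense gene, Gm49476, overlaps Tob2 in the GENCODE annotation, and without a stated strand setting its reads cannot be told apart from those of Tob2.

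Btg3 (Entrez Gene 12228, chromosome 16), whose human counterpart is known to bind E2F1 and to restrain entry into S phase, was the member that did not pass. It measured 12.3, 11.3 and 12.1 CPM in dox replicates 1, 2 and 3, against 16.0, 12.7 and 13.5 CPM in untreated replicates 1, 2 and 3. All dox values lay below all untreated ones, but by little, and untreated replicate 1 was the furthest from the rest. The log2 fold change was −0.24 (SE 0.12, 95% interval −0.51 to 0.04, adjusted p = 0.134, edgeR), which leaves room for a level in dox libraries between 0.70 and 1.03 times that in untreated ones. It was −0.14 without untreated replicate 1 and between −0.31 and −0.20 without any other library. Cxadr, which overlaps it on the opposite strand, had 4, 3 and 1 counts in dox libraries and 6, 5 and 5 in untreated ones. Gm49590 overlaps Btg3 on the same strand in the GENCODE annotation and is not in the count table. Its reads cannot be told apart from those of Btg3.

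**Figure D2:**
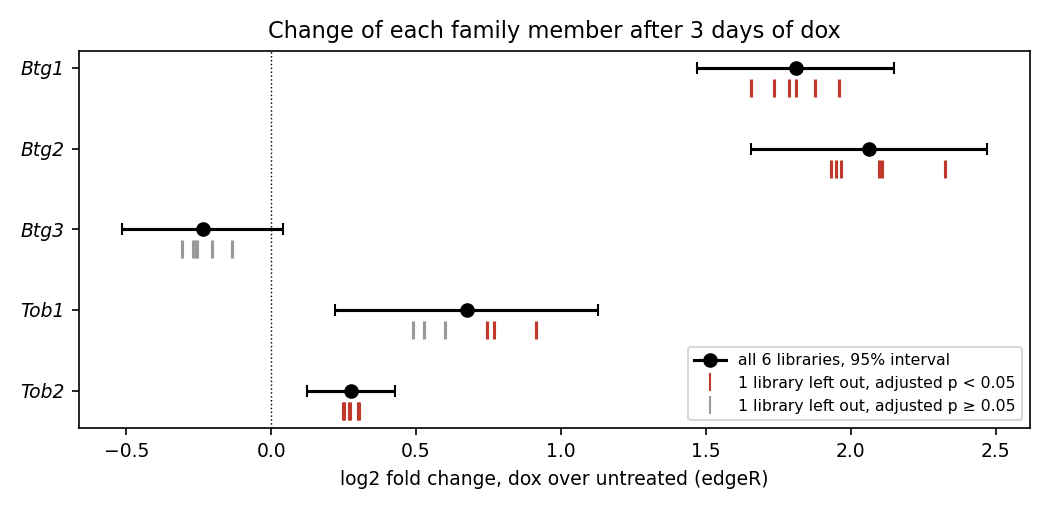
Log2 fold change of each member, dox over untreated (horizontal axis), from all 6 libraries with its 95% interval (points and bars) and with 1 library left out at a time (ticks, red where the adjusted p stayed under 0.05). The intervals of Btg1 (1.47 to 2.15) and Btg2 (1.66 to 2.47) overlap and lie above that of Tob1 (0.22 to 1.13), and 3 of the 6 ticks of Tob1 are grey.

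Btg4, the family member known from oocytes, had 0 counts in all 6 libraries and was not tested.

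Compared per length of gene, as RPKM, the scaled CPM per kilobase of gene, the order of levels in dox libraries was Btg2 (158 ± 17.0), Btg1 (126 ± 27.3), Tob2 (26.8 ± 1.15), Tob1 (9.55 ± 1.94) and Btg3 (8.58 ± 0.364). In untreated libraries it was Btg2 (37.7 ± 11.1), Btg1 (35.9 ± 3.52), Tob2 (22.2 ± 0.795), Btg3 (10.1 ± 1.25) and Tob1 (5.99 ± 1.65 RPKM, SD, n = 3 each). Btg2 and Btg1 overlapped over libraries in both groups, as did Tob1 and Btg3 in dox libraries, while all other neighbours in the order did not overlap. The 5 genes summed to 350, 343 and 291 RPKM in dox replicates 1, 2 and 3, against 132, 104 and 99.9 RPKM in untreated replicates 1, 2 and 3, so the ratio of the means was 2.93.

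Btg1 and Btg2 together made up a larger share of the summed family level in each dox library than in any untreated one. They held 87.3%, 87.0% and 84.2% of the sum in dox libraries, against 67.9%, 64.7% and 64.1% in untreated libraries. Btg1 and Btg2 also had the largest fold changes of the family, so their larger share restates those changes and is not a separate result. Tob2 held 8.22% ± 0.572 in dox and 20.0% ± 2.29 in untreated libraries, and Btg3 held 2.63% ± 0.317 and 9.08% ± 0.542 in the same order (SD, n = 3 each). Btg1 alone did not separate the groups in its share, with 33.3% to 44.1% in dox and 29.7% to 34.9% in untreated libraries (p = 0.2, exact permutation test). The ratio of Btg1 to Btg2 per length was 0.727, 1.03 and 0.655 in dox and 0.777, 1.17 and 1.01 in untreated libraries (p = 0.3, exact permutation test, in which 3 libraries against 3 cannot go below 0.1), and the groups overlapped. The ratio of Btg1 to Btg3 was 14.5, 18.5 and 11.1 in dox libraries, against 3.41, 3.95 and 3.33 in untreated libraries. Its groups could not overlap, since all dox libraries were higher for Btg1 and lower for Btg3. The ratio is thus not a separate result.

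**Figure D3:**
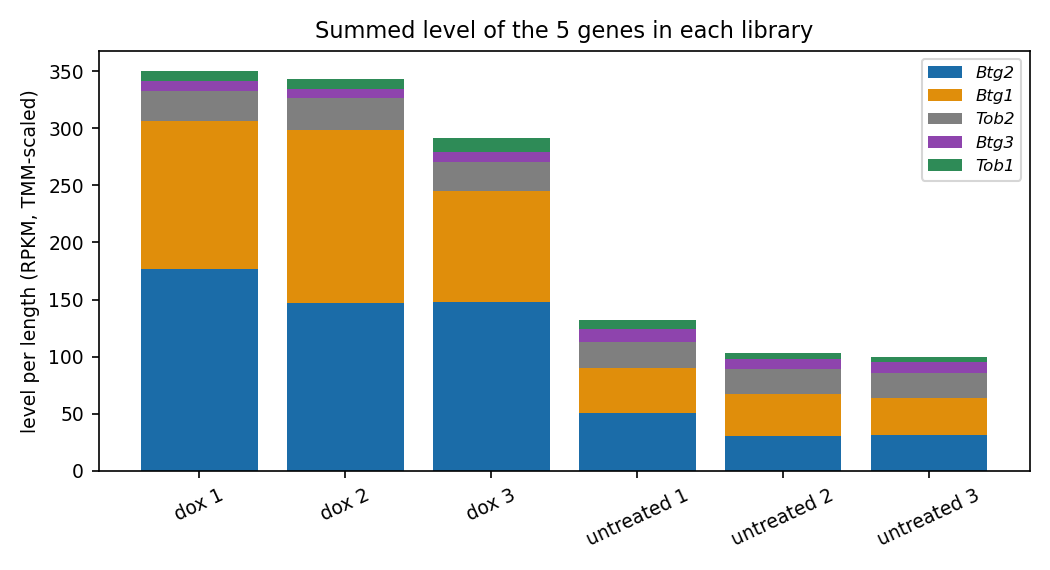
Summed level of the 5 genes in each library in RPKM (vertical axis, from 0), stacked by gene, with dox libraries left of untreated ones. The stacks reach 291 to 350 RPKM in dox libraries and 99.9 to 132 RPKM in untreated libraries, and most of the gap is Btg1 and Btg2.

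The genes with the most similar pattern were sought by the root mean square difference of log2 CPM, centred for each gene, over the 6 libraries among 10110 other genes that averaged 5 CPM or more. Nearest to Btg1 were Irs2 (difference 0.11), an adaptor of insulin and growth factor receptors, Pik3ip1 (0.12), an inhibitor of phosphoinositide 3-kinase, and Rab3a (0.12), a vesicle GTPase. Nearest to Btg2 were Ly86 (0.15), a partner of a Toll-like receptor homolog on B cells, Prkd2 (0.15), a protein kinase, and Il10ra (0.15), an interleukin receptor chain. The difference between Btg1 and Btg2 themselves was 0.30. Nearest to Tob1 were Asf1a (0.14), a histone chaperone, Zfp974 (0.14) and Dusp7 (0.15), a phosphatase of ERK kinases. Nearest to Tob2 were Lpgat1 (0.013), a lipid acyltransferase, Fam160b1 (0.018) and Zfp868 (0.018). Nearest to Btg3 were Ndufa1 (0.036) and Uqcrq (0.040), subunits of the respiratory chain, and Spcs1 (0.038), a subunit of the signal peptidase. A small difference is easier to reach for genes that changed little, so these values rank genes for 1 member and not between members. The neighbours are mainly genes of like fold change, at log2 1.85 for Irs2, 1.82 for Pik3ip1 and 1.81 for Rab3a beside 1.81 for Btg1. Shared control of such genes was not tested.

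The lists that follow hold other genes of the pathway. Over all genes tested, 27.0% rose and 26.6% fell, and the counts of each list are to be read beside these shares. Where a list is given with 0 genes in a direction, edgeR at an unadjusted p under 0.05, DESeq2 and limma voom gave 0 as well. In the CCR4-NOT complex, which the family recruits, of 11 genes 3 fell, 1 rose and 7 did not pass, with a median log2 fold change of −0.10. The share that fell was near that over all genes tested. Cnot9, a subunit that binds RNA-binding adaptors, measured 104 ± 6.92 CPM in dox and 167 ± 5.83 CPM in untreated libraries (SD, n = 3 each; log2 fold change −0.68, SE 0.07, adjusted p under 0.05, edgeR). Cnot2, part of the NOT module, changed by −0.57 (SE 0.07) and Cnot10, a peripheral subunit, by −0.39 (SE 0.07). Of the catalytic subunits that Btg and Tob proteins bind, Cnot8 was at 92.2 ± 8.08 CPM in dox and 79.7 ± 1.99 CPM in untreated libraries (log2 fold change 0.21, SE 0.08, adjusted p = 0.0484, edgeR) and Cnot7 at 84.7 ± 5.38 and 90.7 ± 2.12 CPM in the same order (−0.10, SE 0.07, not past the test). The call of Cnot8 was lost without any of the 3 untreated libraries, without dox replicate 1 and without dox replicate 3, each of which left 0 genes higher. It was also lost with DESeq2's size factors or test, with scaling by total counts alone, with no low-count filter and under the replicate block. The scaffold gene Cnot1 (−0.14) and the other catalytic genes Cnot6 (−0.14) and Cnot6l (−0.06) did not pass.

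Other deadenylases were lower in 4 of 8 genes (Pde12, Noct, Toe1 and Parn), while 1, Pan3, was higher and the median was −0.20. Noct, known as nocturnin, changed by −0.79 (SE 0.16), Pde12, a mitochondrial enzyme, by −0.42 (SE 0.08) and Toe1 by −0.36 (SE 0.08). Parn changed by −0.31 (SE 0.08), and Pan3, the regulatory subunit of the PAN complex, by 0.31 (SE 0.09). Without untreated replicate 3 or dox replicate 2 the rise of Pan3 was not called, which left 0 higher.

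Of 8 genes of poly(A)-binding proteins and their regulators, 6 fell, 0 rose and 2 did not pass, with a median of −0.29. The 3 with the smallest p were Larp4 (−0.54, SE 0.08) and Larp1 (−0.52, SE 0.06), which bind messenger RNA together with poly(A)-binding protein, and Paip2b (−0.40, SE 0.07), an inhibitor of that protein. Pabpc1, the main cytoplasmic poly(A)-binding protein and the partner of Tob1 and Tob2, was at 1252 ± 113 CPM in dox and 1490 ± 110 CPM in untreated libraries (SD, n = 3 each; −0.25, SE 0.09, adjusted p = 0.049, edgeR). The call of Pabpc1 was lost on leaving out untreated replicate 2, untreated replicate 3 or dox replicate 1, with upper-quartile scaling and at a filter of 1 CPM in 3 libraries. That of Pabpc4 (−0.23, SE 0.07) was lost on leaving out any of the same libraries, and 4 genes were then lower.

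Of 11 genes of decapping and 5' to 3' decay, the steps that follow tail shortening, 2 fell, 0 rose and 9 did not pass, and the median was −0.01. Eif4enif1, an adaptor of the cap-binding protein, changed by −0.40 (SE 0.06) and Patl1, a decapping activator, by −0.26 (SE 0.08), while Lsm14a (−0.13) did not pass. Without untreated replicate 2 or dox replicate 3 only Eif4enif1 was lower, since the call of Patl1 was lost. Xrn1, the 5' to 3' exonuclease, was at 0.25 (adjusted p = 0.136, edgeR) and was called without untreated replicate 2 (0.38), which made 1 gene higher.

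RNA-binding adaptors bring CCR4-NOT to chosen messages. Of 14 tested of 18 such genes, 8 rose, 3 fell and 3 did not pass, with a median of 0.30. Zfp36l1, which binds AU-rich elements and restrains the cell cycle in B cell progenitors, was at 195 ± 8.81 CPM in dox and 134 ± 6.59 CPM in untreated libraries (SD, n = 3 each; 0.54, SE 0.07). Cpeb4, a cytoplasmic polyadenylation factor of the family that Tob1 binds, rose by 0.97 (SE 0.13) and Tnrc6b, a partner of Argonaute proteins, by 0.56 (SE 0.09). The falls were those of Nanos1 (−1.29, SE 0.25) and Cpeb1 (−2.21, SE 0.48), both under 5 CPM in every library, and Pum2 (−0.20, SE 0.07), whose call was lost on leaving out any of the 3 untreated libraries or dox replicate 1. Without untreated replicate 3, 4 rose.

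Among 9 tested of 13 other partners and regulators of Btg and Tob proteins, 5 fell (Skp2, Prmt1, Cul1, Mapk3 and Skp1), 1, Smad5, rose and 3 did not pass, with a median of −0.25. Skp2, the substrate receptor of the ubiquitin ligase that degrades Tob1, was at 42.4 ± 3.05 CPM in dox and 84.4 ± 8.57 CPM in untreated libraries (SD, n = 3 each; −0.99, SE 0.09). Cul1 and Skp1, scaffold and adaptor of the same ligase, changed by −0.45 (SE 0.08) and −0.25 (SE 0.09). The call of Skp1 was lost with upper-quartile scaling and on leaving out untreated replicate 1 or 2 or dox replicate 1 or 2. Prmt1, an arginine methyltransferase that binds Btg1 and Btg2, changed by −0.64 (SE 0.07), and Mapk3, an ERK kinase of the pair that phosphorylates Tob1, by −0.35 (SE 0.08). Smad5, a mediator of bone morphogenetic protein signals, rose by 0.27 (SE 0.09). That call was lost with no low-count filter and on leaving out untreated replicate 2, untreated replicate 3 or dox replicate 2, and 0 were then higher.

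**Figure D4:**
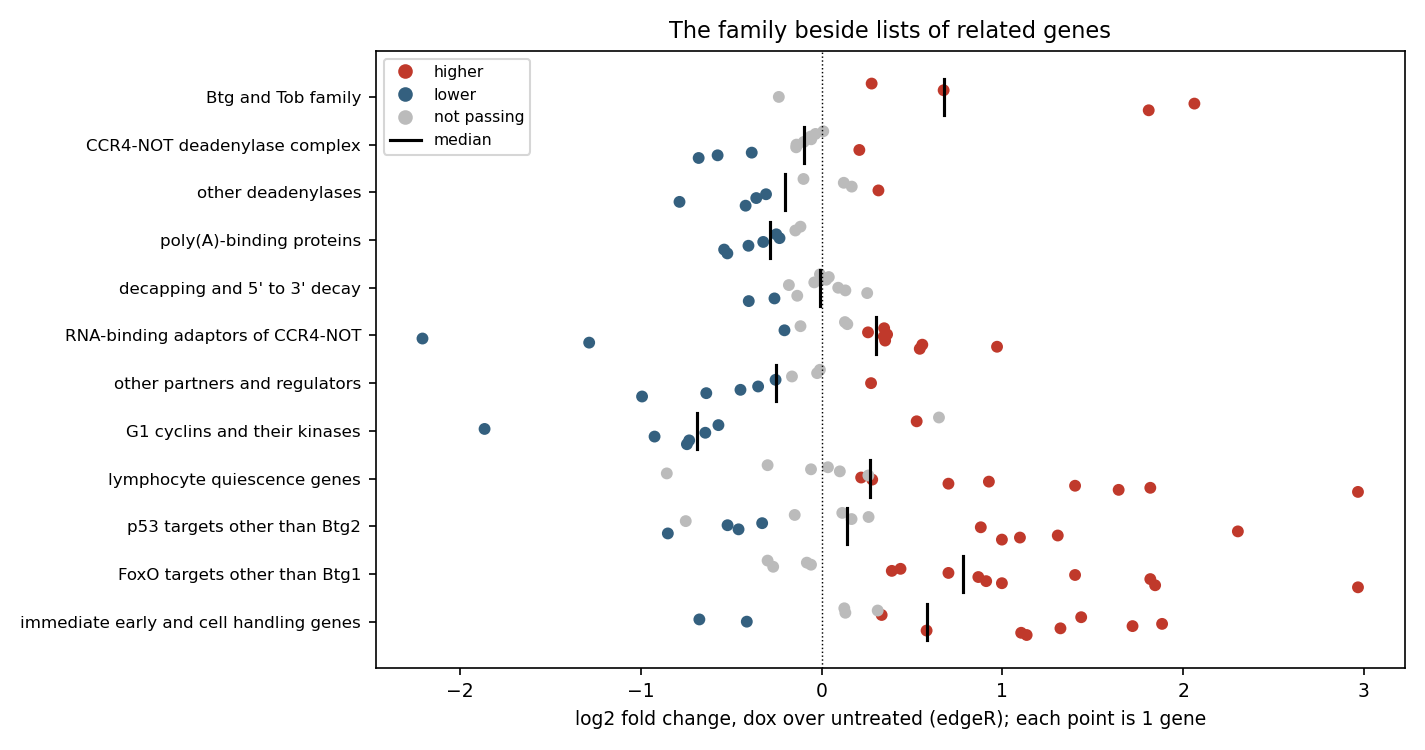
Log2 fold change, dox over untreated (horizontal axis), of the 5 family members (top row) and of the tested genes of 11 lists; each point is 1 gene, red where it rose, blue where it fell and grey where it did not pass, and black lines are medians. The family median is 0.68, that of CCR4-NOT genes −0.10, that of G1 cyclins and kinases −0.69 and that of FoxO targets 0.78.

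Of 8 G1 cyclins and their kinases, which drive cells from rest towards S phase, 6 fell, 1, Ccnd2, rose and 1, Ccnd1 (0.65), did not pass, with a median of −0.69. Cdk4 was at 187 ± 10.9 CPM in dox and 313 ± 0.838 CPM in untreated libraries (SD, n = 3 each; −0.74, SE 0.07), Cdk2 changed by −0.73 (SE 0.08) and Ccne2, a cyclin of the transition into S phase, by −0.92 (SE 0.10). Ccnd1, the cyclin described as a target of Btg2 and Tob1 repression, was at 2.08 ± 0.361 CPM in dox and 1.32 ± 0.234 CPM in untreated libraries. Ccnd2 rose by 0.53 (SE 0.14), and without untreated replicate 3 this call was lost, which left 0 higher.

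Of 14 other genes of lymphocyte quiescence, 8 rose, 0 fell and 6 did not pass, with a median of 0.27. Klf2, a factor of resting lymphocytes, was at 70.5 ± 8.38 CPM in dox and 9.01 ± 1.29 CPM in untreated libraries (SD, n = 3 each; 2.97, SE 0.13), Slfn2, a guard of quiescence in immune cells, rose by 1.64 (SE 0.09) and Pik3ip1 by 1.82 (SE 0.19). Without dox replicate 1, 1 gene was called lower, Klf4 (−1.58), a gene at 0.657 ± 0.493 CPM in dox and 1.20 ± 0.395 CPM in untreated libraries (SD, n = 3 each).

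Of 14 targets of FoxO factors other than Btg1, 10 rose, 0 fell and 4 did not pass, with a median of 0.78. Irs2 was at 90.3 ± 15.5 CPM in dox and 25.1 ± 1.49 CPM in untreated libraries (SD, n = 3 each; 1.85, SE 0.12). Sesn1, a restraint on mTORC1, rose by 1.00 (SE 0.08), and Klf2 stands in this list as well, as do Pik3ip1, S1pr1, Cdkn1b and Rbl2 among others. Without dox replicate 2, 1 gene was called lower, Il7r (−0.54).

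Of 14 tested of 16 targets of p53 other than Btg2, 5 rose, 4 fell (Cdkn1a, Aen, Pmaip1 and Bax) and 5 did not pass, with a median of 0.14. The share that fell was near the 26.6% over all genes tested, of which 27.0% rose. Beside Sesn1, Trp53inp1, a stress-induced gene, was at 963 ± 13.4 CPM in dox and 450 ± 58.9 CPM in untreated libraries (SD, n = 3 each; 1.10, SE 0.10) and Gadd45a rose by 1.31 (SE 0.14). Plk2 (2.30, SE 0.31) and Sesn2 (0.88, SE 0.19) were the other 2 that rose. Cdkn1a, the p21 inhibitor of cell division, changed by −0.85 (SE 0.11), Aen by −0.46 (SE 0.09), Pmaip1 by −0.52 (SE 0.12) and Bax by −0.33 (SE 0.11). The call of Bax was lost on leaving out untreated replicate 1, untreated replicate 3 or dox replicate 2.

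Of 13 tested of 16 immediate early and cell handling genes, 8 rose, 2 fell (Ier2 and Dusp1) and 3 (Fos, Junb and Egr1) did not pass, with a median of 0.58. Jund was at 385 ± 45.0 CPM in dox and 175 ± 31.5 CPM in untreated libraries (SD, n = 3 each; 1.13, SE 0.13), Hspa1b, a heat shock gene with a near-identical copy, rose by 1.10 (SE 0.16) and Klf6 by 0.58 (SE 0.10). Ier2 changed by −0.41 (SE 0.10) and Dusp1 by −0.68 (SE 0.19), a fall not called without untreated replicate 2, which left 1 lower. Summed over the list, the levels were 869, 808 and 703 CPM in dox replicates 1, 2 and 3, against 490, 396 and 417 CPM in untreated replicates 1, 2 and 3. The part of cell handling in the rise of Btg2, itself an immediate early gene, was not tested.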

How the data were processed

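RNA sequencing counts of 6 libraries were used. The authors deposited raw counts per Entrez Gene identifier, each with the gene's length. The submitters' processing notes list CASAVA 1.8.2, featureCounts and build mm9. Which aligner, annotation and strandedness applied is not given in the sources used here. The 6 per-sample files held the same counts as the series table.

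Of 26286 identifiers, 24176 matched a RefSeq symbol (GRCm38.p6), and no coordinates of the files were used. Genes were kept with filterByExpr at a minimum count of 10, scaled by TMM and tested by quasi-likelihood (glmQLFTest) in edgeR 4.0.16 (R 4.3.3) with no covariates. P-values were adjusted by Benjamini-Hochberg over 12275 genes, and a gene was called at adjusted p under 0.05. SE is the size of the log2 fold change divided by the square root of F. RPKM is the scaled CPM per kilobase of the deposited length. The fit was tested on simulated data with 200 changed genes of 12275, a far smaller share than the 53.6% called here. That simulation cannot show how the fit behaves when so many genes change.

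The members, lists and tests were chosen with earlier results of these data known. Named beside the members and their relatives were the 3 genes with the smallest p of each list, genes behind a count of 5 or fewer, the 3 genes nearest in pattern and the 2 most abundant markers of each type, apart from items that are not reported here. Others, such as Pabpc1, Cnot7, Cnot1, Cnot6, Cnot6l, Xrn1, Klf4 and Il7r, were named after their values had been seen. Alternatives were other scalings and filters, DESeq2 1.42.0, limma 3.58.1 voom, the replicate number as a block and leaving out each library. P-values measure the spread between mice carrying 1 leukemia.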

Additional observations from a re-analysis of the deposited data

How the results depend on the processing

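The direction of change of all 5 members was the same under all 14 alternatives, and the calls of Btg1, Btg2 and Tob2 and the lack of a call for Btg3 held under each of them. Tob1 was not called without 3 of the libraries, with log2 fold changes of 0.49 to 0.91 over the 6 fits that leave out a library, and the members called higher were then 3 to 4. Over the same fits Btg1 ran from 1.65 to 1.96, Btg2 from 1.93 to 2.33, Btg3 from −0.31 to −0.14 and Tob2 from 0.25 to 0.30, and all genes called from 2693 to 3168 higher and 2791 to 3193 lower.

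Counts of the lists moved under some alternatives, most for RNA-binding adaptors called higher, which went from 8 to 4 without untreated replicate 3. Over the fits that leave out a library, genes called higher were 0 to 1 for CCR4-NOT, 0 to 1 for other deadenylases, 0 to 1 for decapping and decay, 4 to 8 for RNA-binding adaptors, 0 to 1 for other partners and 0 to 1 for G1 cyclins. Also called higher were 6 to 8 quiescence genes, 6 to 8 immediate early genes, 9 to 10 FoxO targets and 5 to 6 p53 targets. Genes called lower were 1 to 2 for decapping and decay, 0 to 1 for quiescence genes, 0 to 1 for FoxO targets and 1 to 2 for immediate early genes. They were 4 to 6 for poly(A)-binding genes, 4 to 6 for other partners, 3 to 5 for p53 targets, 2 to 4 for RNA-binding adaptors and 3 to 4 for CCR4-NOT. CCR4-NOT genes called higher were 0 with DESeq2 size factors, with total counts alone, with no low-count filter, under the replicate block and by the DESeq2 test. Other deadenylases called higher were 2 with upper-quartile scaling, and other partners called higher were 0 with no low-count filter. The cause was not tested.

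With the replicate block, decapping genes called higher were 1 (Xrn1) and FoxO targets called lower were 1 (Il7r), while Btg1 was at 1.79, Btg2 at 2.09, Btg3 at −0.23, Tob1 at 0.68 and Tob2 at 0.28. Deviations from the group means correlated at 0.305, 0.288 and −0.0373 across genes for same-numbered libraries 1, 2 and 3, so the third pair did not deviate together and the numbers are not taken as pairs. Depth did not order the errors of the members, since Btg3, with the fewest counts in dox libraries, had an SE of 0.12, against 0.15 for Btg1 and 0.18 for Btg2.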
